A study of Mus musculus with 16 samples.

Results

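The genes described here are 9 parts of the gp130, JAK and STAT3 signalling route and of the SOCS proteins that feed back on it: Il6st, Osmr, Jak1, Jak2, Stat3, Socs1, Socs2, Socs3 and Cish. They were taken by symbol from a table of read counts for 22468 mouse genes. The rule uses no measured value, but the set was proposed with earlier results of these data known. All 9 were among the 13412 genes with enough reads to be tested.

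Interleukin-6 and related cytokines act through gp130, the shared receptor chain encoded by Il6st, alone or paired with a partner such as the oncostatin M receptor (Osmr). Janus kinases bound to the chains then phosphorylate STAT3, which moves to the nucleus and switches on genes that include Socs3. SOCS proteins and CIS, the product of Cish, bind activated receptors or kinases and dampen the signal, and Cish and Socs2 are best known as targets of STAT5, which acts downstream of JAK2. In heart muscle this route is known for its activation after injury, and oncostatin M for its effects on the shape and gene programme of cardiomyocytes. Much of the route is set by phosphorylation, which counts of messenger RNA do not measure.

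The samples were whole heart ventricles, from above and below the site of ligation, of neonatal mice. Wild-type mice and mice lacking Chrna7, the gene of the alpha7 nicotinic acetylcholine receptor, had either sham surgery or a myocardial infarction (MI). The Chrna7 mutant is the line the labels give as Jax #003232. The groups are wild type after sham (WT-SH), wild type after MI (WT-MI), knockout after sham (KO-SH) and knockout after MI (KO-MI), with 4 samples in each and 16 in all. The labels give no drug and no further allele, and they do not give the strain, the age in days, the time from surgery to harvest, the litter or whether each sample is 1 animal. The p-values therefore measure the spread between these samples, part of which may be technical.

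The libraries held 10711442 to 17223580 reads assigned to genes, and levels are given as CPM, the counts-per-million scale, on which a gene's reads are set against the scaled total of its library. Chrna7 itself had 0 to 4 reads in every library, wild type included, so it cannot check the genotype labels. The summed level of 6 cardiomyocyte markers was 48117 to 58999 CPM in 15 libraries and 28597 CPM in replicate 4 of KO-MI. In a principal component analysis the 4 KO-SH libraries were separated from the other 12 on the leading axis (25.5% of the variance). They also had the lowest mean sums of mesothelial, erythroid, early response and fibroblast markers. Mesothelial markers summed to 27.7 to 35.3 CPM in KO-SH and to at least 48.0 CPM in every other group, and early response markers such as Fos summed to 101 to 125 CPM against at least 161 CPM. Erythroid markers summed to 987 to 1403 CPM in KO-SH, 1118 to 1850 CPM in KO-MI, 1701 to 2105 CPM in WT-MI and 2958 to 4723 CPM in WT-SH. Fibroblast markers overlapped between the sham groups, at 6200 to 6567 CPM in KO-SH and 6344 to 7285 CPM in WT-SH. Of the 7 fibroblast markers, 2 averaged higher in KO-SH than in WT-SH, Dcn (394 against 321 CPM) and Pdgfra (63.2 against 38.2 CPM), and the others lower. Endothelial markers were higher in KO-SH, at 1347 to 1418 CPM against 1165 to 1293 CPM in WT-SH, and leukocyte markers too, at 97.8 to 114 CPM against 76.4 to 89.3 CPM. Cardiomyocyte markers summed lower, at 48392 to 50326 CPM against 51816 to 58999 CPM, and each of these differences had no overlap. Myh6 made up most of the cardiomyocyte sum. Of the 6 cardiomyocyte markers, 2 averaged higher in KO-SH than in WT-SH, Ryr2 (1504 against 1378 CPM) and Pln (1179 against 1020 CPM), and the others lower. None of the 6 passed the test used below. The part of these differences in the results below was not tested. Reads of Y-linked genes were close to 0 in 3 libraries, replicate 1 of WT-SH, replicate 2 of KO-SH and replicate 1 of KO-MI. In bulk ventricle, fewer cells of a type and less RNA per cell cannot be told apart.

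Levels of different genes were compared as CPM per kilobase of exon, averaged over the 16 samples. Jak1, a kinase bound to gp130, stood highest at 21.5 ± 1.37 CPM per kilobase (SD, n = 16). Cish followed at 13.6 ± 2.05, Stat3 at 12.2 ± 1.38, Il6st at 9.73 ± 1.58 and Jak2 at 7.20 ± 0.632 CPM per kilobase. Socs2 stood at 3.84 ± 0.488 CPM per kilobase. The lowest levels per kilobase were those of Socs3 at 1.37 ± 0.465, Osmr at 0.916 ± 0.221 and Socs1 at 0.676 ± 0.201. The ranges of Cish and Stat3 overlapped, as did those of Stat3 and Il6st, of Il6st and Jak2, of Socs3 and Osmr, and of Osmr and Socs1. Jak1 lay above all others in every sample, and Socs2 lay between Jak2 and Socs3 with no overlap on either side. Gp130, the kinases and STAT3 were thus among the members with the higher levels per kilobase, with Cish beside them, while Socs3 and Socs1, which act directly on the kinases, were among the 3 lowest. The order depends in part on the exon lengths. In CPM without length Cish (87.6) stood below Stat3 (117) and Il6st (108), and Socs2 (36.6) stood level with Jak2 (36.2).

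**Figure D1:**
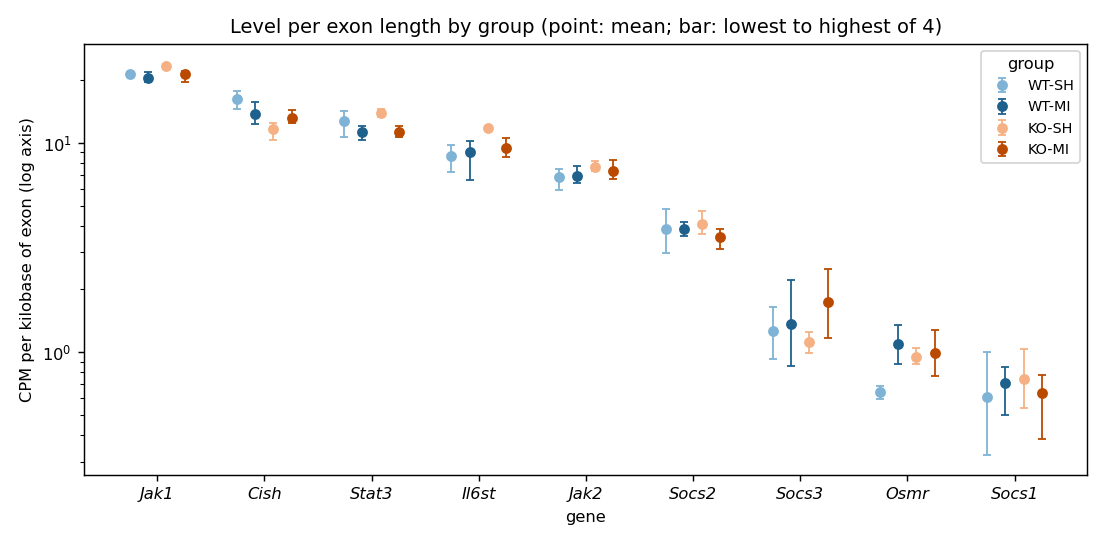
Level of each of the 9 genes per kilobase of exon, on a log axis, in the 4 groups. Points are means and bars run from the lowest to the highest of 4 samples. Jak1 lies highest, at 21.5 CPM per kilobase over all samples, and Socs1 lowest, at 0.676, and in the lower range only Osmr shows a group (WT-SH) that lies apart from the other 3.

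Socs3 and Cish were the members whose promoter windows held the palindrome TTCNNNGAA, the core that STAT proteins bind. The windows run from 250 bases before to 50 bases after the start site in RefSeq (GRCm38.p6) and were found for 8 of the 9 genes. The sites are shown with 10 bases on each side, the match in capitals, because these 2 feedback genes are classical STAT targets.
Socs3, chr11:117969502-117969530, minus strand: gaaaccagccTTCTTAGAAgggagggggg
Cish site 1, chr9:107296649-107296677, plus strand: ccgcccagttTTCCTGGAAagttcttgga
Cish site 2, chr9:107296660-107296688, plus strand: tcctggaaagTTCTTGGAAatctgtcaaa
The Socs3 site is centred 150 bases before the start site, counted as -150, and the Cish sites are centred at 4 and 15 bases after it. The Cish sites lie next to each other, so their flanks share bases. The palindrome reads the same on both strands, so each site was counted 1 time. Of 32851 windows of the same 300 bases, 8.298% held at least 1 match. The stricter form TTCCNGGAA, a subset of the same sites, was in 1.148% of windows and matched Cish site 1. No match was found in the windows of Il6st, Osmr, Jak1, Jak2, Stat3 and Socs1, which says only that these letters are not in those 300 bases.

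Osmr, the signalling chain that pairs with gp130 for oncostatin M, was the member that rose after MI in wild type. Its level was 8.30, 7.48, 8.04 and 7.25 CPM in replicates 1 to 4 of WT-SH and 16.3, 12.1, 10.6 and 13.6 CPM in WT-MI. In the knockout it was 11.6, 10.7, 10.8 and 12.7 CPM after sham and 10.5, 12.6, 9.32 and 15.5 CPM after MI. All 4 WT-SH samples lay below the other 12, and the other 3 groups overlapped. For comparison, 8.22% of all genes tested had no overlap between WT-MI and WT-SH, and 26.3% had none between KO-SH and WT-SH. In wild type Osmr rose 1.69-fold after MI, a log2 change of 0.76 ± 0.16 (SE), with an adjusted p of 0.0130 (edgeR quasi-likelihood test, Benjamini-Hochberg over all 13412 genes, as for every adjusted p here). It was the only member of 9 called in this comparison, in which 2.25% of all genes tested were called, with 177 higher and 125 lower. Without replicate 1 of WT-MI, its highest sample, the log2 change was 0.64 and the adjusted p 0.0716.

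Between genotypes after sham, Osmr was 1.47-fold higher in the knockout (log2 change 0.56 ± 0.16, adjusted p = 0.0209). After MI in the knockout its log2 change was 0.07 ± 0.15 (adjusted p = 0.790, 95% interval -0.24 to 0.38). The change after MI in knockout minus that in wild type was -0.69 ± 0.22 on the log2 scale, with an adjusted p of 0.0931, which did not pass the threshold of 0.05. Without replicate 4 of KO-MI that difference was -0.84 with an adjusted p of 0.0208. It did not pass in any other fit that leaves out 1 library. The sham call was lost when replicate 2 or 4 of WT-SH or replicate 1 or 4 of KO-SH was left out, with log2 changes of 0.51 to 0.59 over the 8 such fits and adjusted p up to 0.0653. It was also lost in a fit that corrects for gene length and GC content (0.41, adjusted p = 0.0702).

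Summed leukocyte markers were higher after MI in both genotypes, and the rise of Osmr after MI was called in wild type and not in the knockout. The difference between these 2 changes of Osmr did not pass the threshold, as given above. The 11 markers summed to 76.4 to 89.3 CPM in WT-SH, 120 to 234 CPM in WT-MI, 97.8 to 114 CPM in KO-SH and 151 to 400 CPM in KO-MI. No listed leukocyte marker was at 0 in a whole group, and 2 of the 9 tested rose after MI in wild type and 6 of 9 in the knockout. In these comparisons 2.25% and 16.6% of all genes tested were called in either direction. Replicate 1 of WT-MI and replicate 4 of KO-MI had the highest leukocyte sums of their groups, at 234 and 400 CPM, and the highest Osmr. The leukocyte sum and Osmr were both higher in WT-MI and in KO-SH than in WT-SH, with no overlap. The sum was also higher in KO-MI than in KO-SH with no overlap, and Osmr overlapped between these 2 groups. The part of leukocytes in the Osmr result was not tested.

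Il6st encodes gp130, the chain that most cytokines of the interleukin-6 family share. Its level was 108, 80.4, 102 and 93.9 CPM in WT-SH and 105, 73.5, 110 and 113 CPM in WT-MI. In the knockout it was 131, 131, 128 and 133 CPM after sham and 101, 105, 95.2 and 117 CPM after MI. The 4 KO-SH samples lay above the other 12 and close together, and replicate 2 was the lowest sample of both wild-type groups. KO-SH had no overlap with WT-SH for 26.3% of all genes tested, and none with KO-MI for 23.9%. After sham, Il6st was 1.36-fold higher in the knockout than in wild type (log2 change 0.44 ± 0.11, adjusted p = 0.0136). Without replicate 2 of WT-SH the log2 change was 0.36 and the adjusted p 0.0575.

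After MI the level of Il6st in the knockout differed from that after sham by -0.32 ± 0.11 on the log2 scale (adjusted p = 0.0582, 95% interval -0.56 to -0.08). It passed the threshold by DESeq2 (adjusted p = 0.0383), without haemoglobin and mitochondrial genes (0.0452), with the replicate block (0.0403), with only the KO-SH and KO-MI samples fitted (0.0134) and without replicate 4 of KO-MI (0.0301). It did not pass in the other 7 fits that leave out 1 library, with adjusted p from 0.0996 to 0.153, nor without the 3 libraries with almost no Y-linked reads (0.167). With the correction for length and GC content the log2 change was -0.15 (adjusted p = 0.194). In wild type the log2 change of Il6st after MI was 0.06 ± 0.11 (adjusted p = 0.858). The difference between the genotypes' changes was -0.38 ± 0.16 (adjusted p = 0.213), and it was -0.51 with an adjusted p of 0.0268 without replicate 2 of WT-MI. This difference did not pass in any other fit that leaves out 1 library.

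**Figure D2:**
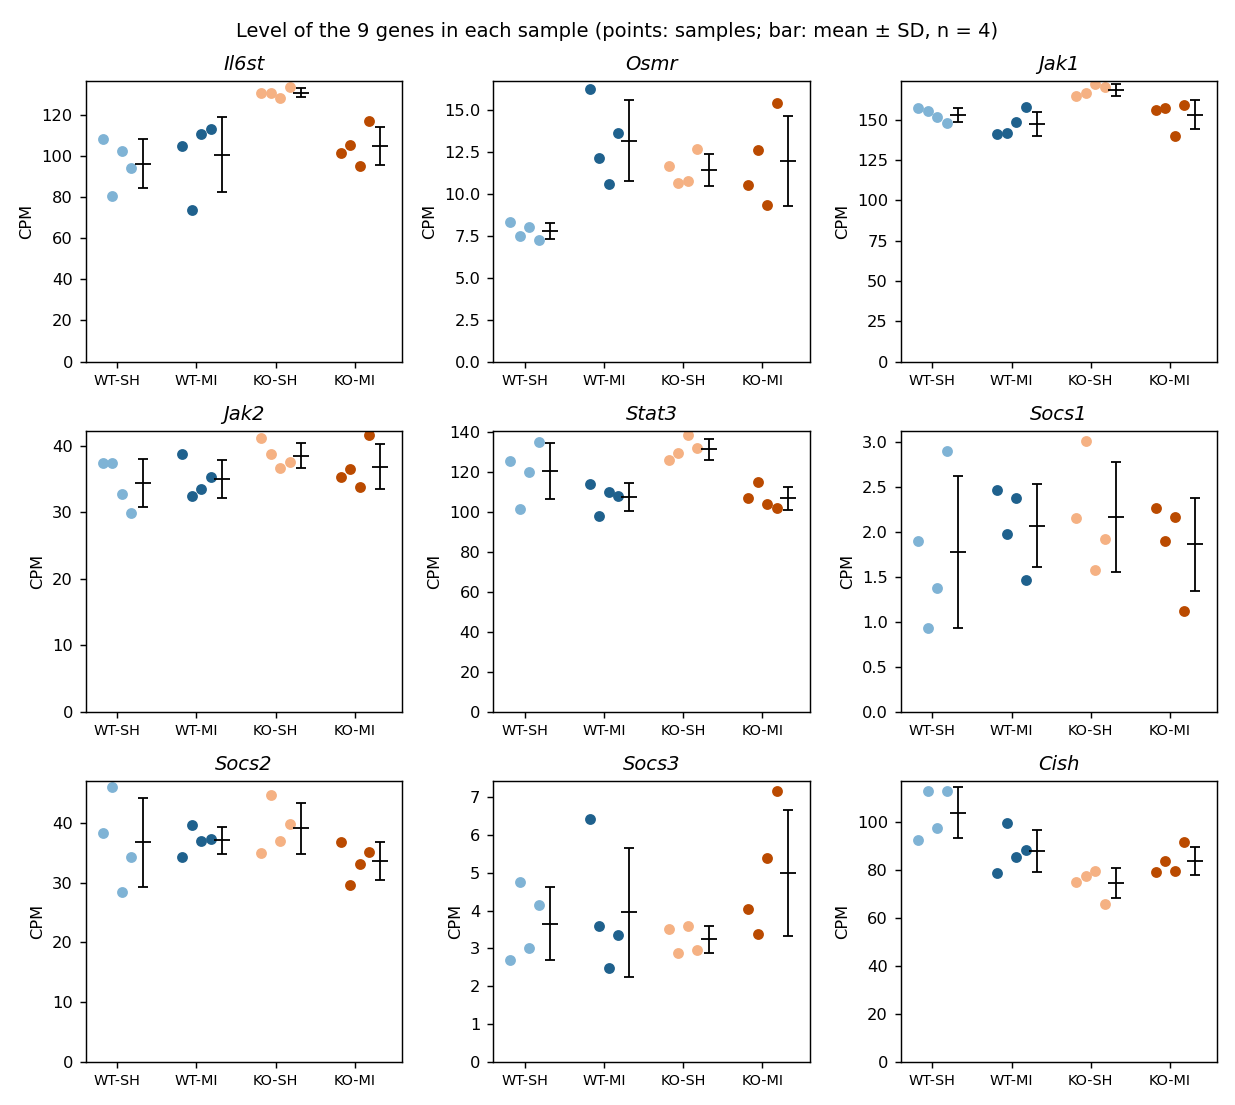
Level in CPM of each of the 9 genes in every sample, by group, with the mean ± SD of 4 samples beside the points. All 4 WT-SH samples lie lowest for Osmr, at 7.25 to 8.30 CPM, and all 4 KO-SH samples lie highest for Il6st, at 128 to 133 CPM.

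Jak1 and Jak2, the kinases that gp130 and many other receptors carry, did not pass the test in any comparison. Jak1 averaged 153 ± 4.11 CPM in WT-SH, 147 ± 7.66 in WT-MI, 168 ± 3.50 in KO-SH and 153 ± 8.76 in KO-MI (SD, n = 4 each). Its KO-SH samples, at 165 to 172 CPM, lay above all others, where 26.3% of all genes tested had no overlap between KO-SH and WT-SH. The log2 difference of Jak1 from WT-SH was 0.14 (adjusted p = 0.175). Jak2 averaged 34.4 ± 3.68 CPM in WT-SH, 35.0 ± 2.81 in WT-MI, 38.5 ± 1.94 in KO-SH and 36.8 ± 3.38 in KO-MI, and all 4 groups overlapped. The 95% intervals of the 4 pairwise log2 changes lay within -0.28 and 0.28 for Jak1 and within -0.26 and 0.36 for Jak2. In GENCODE M21, 4 exon bases of Jak1 also belong to Raver2.

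Stat3, the transcription factor of the route, was the member that fell after MI in the knockout. Its level was 126, 101, 120 and 135 CPM in WT-SH and 114, 97.8, 110 and 108 CPM in WT-MI. It was 126, 129, 138 and 132 CPM in KO-SH and 107, 115, 104 and 102 CPM in KO-MI. Every KO-MI sample lay below every KO-SH sample, whereas the wild-type groups overlapped. Among all genes tested, 23.9% had no overlap between the knockout groups and 8.22% had none between the wild-type groups. The fall in the knockout was -0.30 ± 0.08 on the log2 scale (adjusted p = 0.0207), and Stat3 was the only member of 9 called where 16.6% of all genes tested were called, with 1145 higher and 1075 lower. In wild type the log2 change was -0.17 ± 0.08 (adjusted p = 0.370).

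The changes of Stat3 in the 2 genotypes differed by a log2 value of -0.13, with a 95% interval from -0.38 to 0.12. The call in the knockout was lost without replicate 3 of KO-SH or replicate 3 of KO-MI, with log2 changes of -0.34 to -0.28 over the 8 fits and adjusted p up to 0.0617. It was also lost without the 3 libraries with almost no Y-linked reads (adjusted p = 0.0733) and with the correction for length and GC content (-0.18, adjusted p = 0.0694). In GENCODE M21, 72 exon bases of Stat3 also belong to Stat5a.

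**Figure D3:**
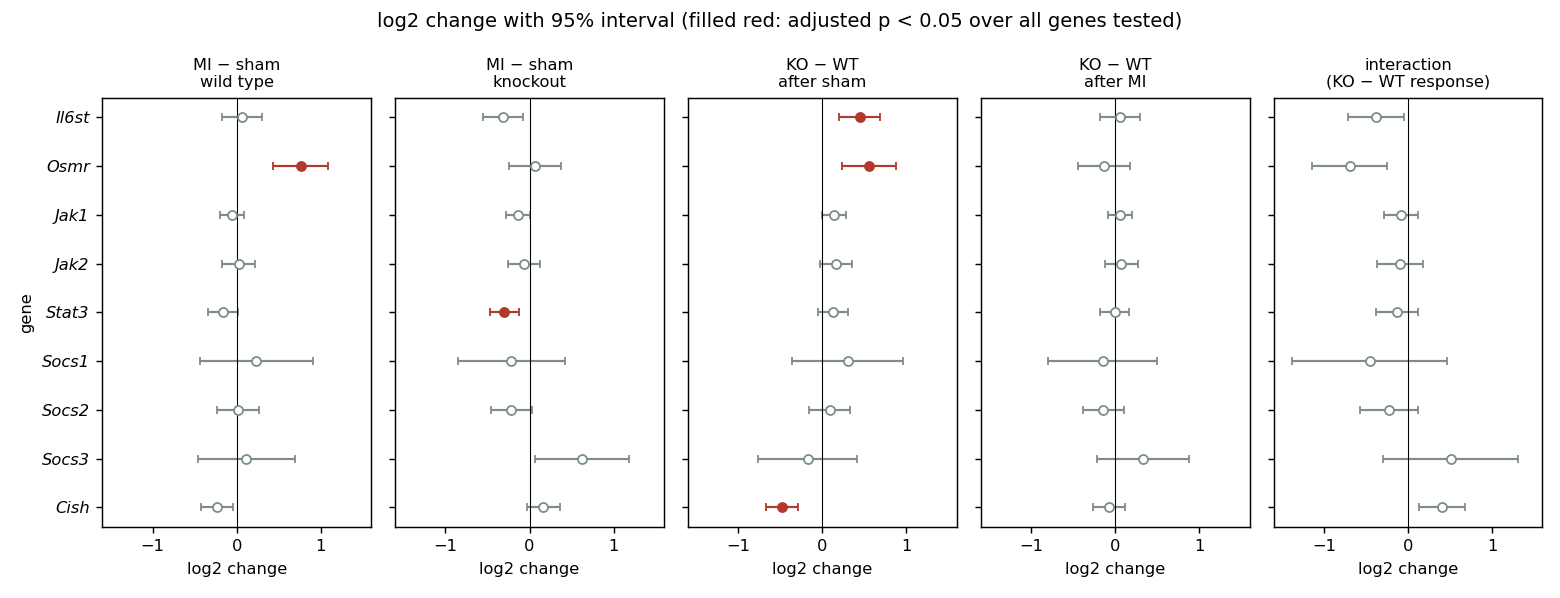
The log2 change of each of the 9 genes, with its 95% interval, for MI minus sham in each genotype, knockout minus wild type after each surgery, and the difference between the genotypes' responses (interaction). Filled points passed an adjusted p of 0.05: Osmr at 0.76 in the first panel, Stat3 at -0.30 in the second, and Il6st at 0.44, Osmr at 0.56 and Cish at -0.48 in the third.

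Cish encodes CIS, a SOCS-family protein that blocks STAT5 docking at cytokine receptors, and it differed between genotypes after sham in the direction opposite to the receptors. Its level was 92.4, 113, 97.6 and 113 CPM in WT-SH and 78.7, 99.9, 85.5 and 88.2 CPM in WT-MI. It was 75.1, 77.6, 79.7 and 65.8 CPM in KO-SH and 79.3, 83.6, 79.8 and 92.0 CPM in KO-MI. Every KO-SH sample lay below every WT-SH sample, and the other groups lay between with overlap. The log2 difference after sham was -0.48 ± 0.09, which is 1.39-fold lower in the knockout (adjusted p = 0.00192). Each of the 8 fits that leave out 1 WT-SH or KO-SH library kept this call, with log2 differences from -0.53 to -0.42.

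After sham 3 of the 9 members were called, Il6st and Osmr higher and Cish lower, beside 15.3% of all genes tested, 1019 higher and 1038 lower. The sham groups had no overlap for 4 of the 9 members, beside 26.3% of all genes tested. This comparison, the MI response of the knockout and that of wild type share the KO-SH or WT-SH samples, so their calls are not independent of each other. The KO-SH samples are also those with lower mesothelial, erythroid, early response and cardiomyocyte sums than WT-SH, and with higher endothelial and leukocyte sums, as given above. The part of these sums in the member results was not tested. After MI the log2 change of Cish was -0.24 ± 0.09 in wild type (adjusted p = 0.208) and 0.17 ± 0.09 in the knockout (adjusted p = 0.225). The difference between these changes was 0.40 ± 0.13 (adjusted p = 0.101), and it was 0.47 with an adjusted p of 0.0330 without replicate 2 of WT-MI. The exons of Cish overlap those of 2 genes annotated on the other strand, Gm17041 over 479 bases and the pseudogene Gm17040 over 261 bases. How strand was treated in counting is not given in the sources used here, so reads from those bases cannot be told apart.

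Socs3, the STAT3-induced inhibitor that binds gp130 and its kinases, was measured at low levels and did not pass the test in any comparison. It stood at 2.68, 4.75, 3.01 and 4.16 CPM in WT-SH and at 6.42, 3.58, 2.47 and 3.35 CPM in WT-MI. It stood at 3.51, 2.87, 3.59 and 2.97 CPM in KO-SH and at 4.04, 3.37, 5.38 and 7.17 CPM in KO-MI. The highest values were in replicate 1 of WT-MI and replicate 4 of KO-MI, which are also the samples with the highest leukocyte sums of their groups, and all groups overlapped. The log2 change after MI was 0.11 ± 0.28 in wild type (adjusted p = 0.890) and 0.62 ± 0.27 in the knockout (adjusted p = 0.113, 95% interval 0.07 to 1.18). With 27 to 103 reads per library and this spread between samples, a change of the size of that interval's upper bound could not be told from a small one.

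Socs1, an inhibitor of JAK kinases induced by interferons, averaged 1.78 ± 0.847 CPM in WT-SH, 2.07 ± 0.461 in WT-MI, 2.16 ± 0.615 in KO-SH and 1.86 ± 0.520 in KO-MI (SD, n = 4 each). It rested on 12 to 41 reads per library, and its 95% intervals ran from -0.85 to 0.96 over the 4 pairwise log2 changes. Socs2, a feedback inhibitor of growth hormone signalling, averaged 36.8 ± 7.42 CPM in WT-SH, 37.1 ± 2.21 in WT-MI, 39.1 ± 4.26 in KO-SH and 33.6 ± 3.14 in KO-MI. The groups overlapped for both genes, and neither passed the test in any comparison.

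Between knockout and wild type after MI no member passed the test. Calls were 0 of 9 by edgeR and by DESeq2, 0 of 9 had an unadjusted p under 0.05, and the adjusted p-values ran from 0.976 to 0.996. In this comparison 0.0149% of all genes tested were called, which is 2 genes (10 by DESeq2), while 638 had an unadjusted p under 0.05. The 95% intervals of the log2 difference were -0.18 to 0.30 for Il6st, -0.44 to 0.17 for Osmr, -0.18 to 0.17 for Stat3, -0.27 to 0.12 for Cish and -0.22 to 0.88 for Socs3. Differences of the size seen after sham thus lay outside the interval for Il6st, Osmr and Cish.

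For the difference between the genotypes' responses to MI, edgeR and DESeq2 each called 0 of 9 members, and 3 had an unadjusted p under 0.05, namely Osmr, Cish and Il6st. Of all genes tested 2.74% were called, 221 with a higher value in the knockout and 147 with a lower one (222 and 234 with the correction for length and GC content). The median over the 9 members was -0.13 on the log2 scale, beside 0.00 over all genes tested. The medians of the members in the other comparisons were 0.02 for MI in wild type, -0.14 for MI in the knockout, 0.14 for genotype after sham and -0.01 for genotype after MI, beside medians of -0.01 to 0.01 over all genes.

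The tested genes most like each called member, by Pearson correlation of log2 CPM over the 16 samples, were listed as a description, since these samples share groups and preparation. For Il6st they were Cds2 (r = 0.964), Hipk1 (0.960) and Bmpr2 (0.957), and for Osmr they were Vav1 (0.878), Cebpg (0.871) and Enpp1 (0.857). For Stat3 they were Ankrd11 (0.918), Rai1 (0.916) and Tns1 (0.901), and for Cish they were Emd (0.924), S1pr1 (0.899) and Gsg1l (0.897). Among the members, the highest correlation was that of Jak1 and Il6st at 0.748, which was 0.490 after the group means were removed, and that of Stat3 and Il6st was 0.634 and 0.545.

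The rest of the pathway was described with 8 lists that hold 82 genes other than the members, of which 70 were tested. In the order of the comparisons, edgeR called 5 of the 70 for MI in wild type, 17 for MI in the knockout and 18 for genotype after sham, where 2.25%, 16.6% and 15.3% of all genes tested were called. Without the 3 libraries with almost no Y-linked reads, which leaves fewer samples, calls named below were lost for Csf2rb2 and Cebpd for MI in wild type, and for Ebi3, Il11ra1, Lifr, Ghr, Csf2ra, Csf3r and Il10ra for MI in the knockout. For genotype after sham they were lost for Il11ra1, Jak3, Ifnar1, Ifnar2, Il13ra1, Ptpn11, Bcl3, Junb, Timp1 and Igfals. With the correction for length and GC content, calls were lost for Ebi3, Ghr, Csf2ra, Csf3r and Il10ra for MI in the knockout and for Lifr, Socs4 and Timp1 after sham. For genotype after MI it called 0 of the 70, with 4 at an unadjusted p under 0.05 and 0 by DESeq2.

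Ligands were scarce. Of 12 ligands of the interleukin-6 family 4 passed the filter on low counts, and 1 of these 4 was called. Ebi3, a subunit of interleukin-27 and interleukin-35, rose after MI in the knockout by 1.44 ± 0.45 on the log2 scale (adjusted p = 0.0329), at 0.394 to 1.26 CPM after MI, and lost the call in 5 of the 8 fits that leave out 1 library. In wild type its log2 change after MI was 1.24 ± 0.44 (adjusted p = 0.159), and it had 2 to 21 reads per library over all groups. Oncostatin M itself (Osm), named for its role after its counts were seen, had 0 to 1 read per library in WT-SH, 4 to 9 in WT-MI, 0 to 2 in KO-SH and 2 to 11 in KO-MI. Interleukin-6 (Il6), named in the same way, had 0 to 3, 1 to 25, 0 to 2 and 1 to 15 reads in the same order. A count of 3 reads is 0.179 to 0.290 CPM in these libraries, and neither gene was tested.

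Of 6 other receptors that pair with gp130 or OSMR, 5 were tested. Lifr, the chain for leukaemia inhibitory factor, stood at 20.8 to 22.6 CPM in KO-SH, 13.6 to 19.9 CPM in KO-MI and 13.8 to 21.0 CPM in WT-SH. It fell after MI in the knockout by -0.50 ± 0.14 on the log2 scale (adjusted p = 0.0220) and was higher in the knockout after sham by 0.43 ± 0.14 (adjusted p = 0.0493). Il11ra1, the interleukin-11 receptor, went the other way, with a log2 change of 0.33 ± 0.09 after MI in the knockout (adjusted p = 0.0147) and -0.29 ± 0.09 between genotypes after sham (adjusted p = 0.0283). Of the 8 fits that leave out 1 library, the call was lost in 6 and 7 for Lifr and in 2 and 3 for Il11ra1, in the same order of comparisons. With the correction for length and GC content the sham difference of Lifr was 0.28 (adjusted p = 0.0921).

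Of 8 other JAKs and STATs, 7 were tested. Jak3, the kinase bound to the common gamma chain of lymphoid cytokine receptors, rose after MI in wild type from 42.0 to 45.8 CPM in WT-SH to 55.6 to 80.9 CPM in WT-MI, with no overlap. Its log2 change was 0.60 ± 0.11 (adjusted p = 0.00629), and all 8 fits that leave out 1 library kept the call. Stat5b, which carries growth hormone signals, fell after MI in the knockout by -0.43 ± 0.11 on the log2 scale (adjusted p = 0.0118), from 55.4 to 61.7 CPM to 41.7 to 46.4 CPM, and also kept its call in all 8. Between genotypes after sham, 2 of the 7 were called. Stat2, which acts in type I interferon signalling, was higher in the knockout by 0.56 ± 0.15 (adjusted p = 0.0158, lost without replicate 2 of WT-SH or replicate 1 or 2 of KO-SH, at 0.43 to 0.66 over the 8 fits with adjusted p up to 0.0609), and Jak3 by 0.34 ± 0.11 (adjusted p = 0.0432, lost in all 8).

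Of 10 receptors that signal through JAK2 and STAT5, 8 were tested. Csf2rb2, a beta chain of the interleukin-3 receptor and a near-identical copy of Csf2rb, so that its reads may be split between them, rose after MI by 1.35 ± 0.33 on the log2 scale in wild type (adjusted p = 0.0315) and by 1.25 ± 0.30 in the knockout (adjusted p = 0.00894). The knockout call held in all 8 fits that leave out 1 library, and the wild-type call was lost in 4 of 8. In the knockout Csf2ra, the receptor for granulocyte-macrophage colony-stimulating factor, rose by 0.45 (adjusted p = 0.0366) and Csf3r, the receptor of granulocytes' growth factor, by 1.41 (adjusted p = 0.0497), while Ghr, the growth hormone receptor, fell by 0.29 (adjusted p = 0.0408). The last 3 calls were lost in 5, 7 and 6 of the 8 fits, and with the correction for length and GC content the change of Ghr was -0.15 (adjusted p = 0.200). After MI in wild type the log2 change of Csf3r was 1.86 ± 0.49 (adjusted p = 0.0524). There it was 0.14 for Csf2ra (adjusted p = 0.690) and -0.17 for Ghr (adjusted p = 0.441). Leukocytes carry Csf2ra, Csf2rb2 and Csf3r, and the leukocyte sums given above also rose after MI. Between the sham groups Csf2ra averaged 28.6 CPM in KO-SH and 37.6 CPM in WT-SH, and the leukocyte sum averaged 104 and 80.1 CPM. The part of leukocytes in these receptor results was not tested.

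The list of receptors whose complexes use JAK1 held 9 genes, interferon and interleukin-10 receptors and also Il4ra, Il13ra1 and Il2rg, and all were tested. After sham 3 of the 9 were higher in the knockout, beside 15.3% of all genes tested called in either direction. These were Ifnar1 (log2 change 0.28, adjusted p = 0.0217) and Ifnar2 (0.32, 0.0372), the chains of the type I interferon receptor, and Il13ra1 (0.39, 0.0324), a chain of the interleukin-13 receptor. After MI in the knockout, Il10ra, the interleukin-10 receptor, rose by 0.74 ± 0.25 (adjusted p = 0.0465). The calls were lost in 3, 6, 7 and 6 of the 8 fits that leave out 1 library. In wild type the log2 change of Il10ra after MI was 0.95 ± 0.26 (adjusted p = 0.0661), which did not pass the threshold. All 14 other negative regulators were tested, and after sham 2 were higher in the knockout, Ptpn11, which encodes the phosphatase SHP2 (0.43, adjusted p = 0.0251), and Socs4 (0.54, adjusted p = 0.0432). Both calls were lost when single libraries were left out, in 6 and 7 of 8 fits. The median over the 14 regulators after sham was 0.17 on the log2 scale, beside -0.01 over all genes tested.

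The 16 genes listed as induced by STAT3 were all tested. After MI 3 of 16 rose in wild type and 6 of 16 in the knockout, where 2.25% and 16.6% of all genes tested were called in either direction, with medians of 0.25 and 0.31 on the log2 scale beside -0.01 and 0.01 over all genes. After sham 2 were higher and 5 lower in the knockout, beside 15.3% of all genes called, with a median of -0.26. Many of these genes also answer to other signals, and the list is not a measure of STAT3 activity.

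Cebpd, a transcription factor of the acute phase response, was 9.51 to 12.6 CPM in WT-SH, 13.7 to 18.3 CPM in WT-MI, 7.28 to 8.15 CPM in KO-SH and 11.7 to 14.4 CPM in KO-MI. It rose after MI by 0.46 in wild type (adjusted p = 0.0466, lost in 5 of 8 fits that leave out 1 library) and by 0.78 ± 0.12 in the knockout (adjusted p = 5.17e-04), and after sham it was lower in the knockout by -0.54 ± 0.12 (adjusted p = 0.00667). Junb, an AP-1 subunit, rose after MI in the knockout by 0.93 ± 0.17 (adjusted p = 0.00155), as did Timp1, an inhibitor of matrix metalloproteinases, by 1.12 ± 0.18 (adjusted p = 5.82e-04). In wild type the log2 change after MI was 0.59 ± 0.16 for Junb (adjusted p = 0.0695) and 0.42 ± 0.17 for Timp1 (adjusted p = 0.250). After sham Junb was lower in the knockout by -0.57 (adjusted p = 0.0298) and Timp1 by -0.61 (adjusted p = 0.0288), and both of these calls were lost in 6 of 8 fits. With the correction for length and GC content the sham difference of Timp1 was -0.39 (adjusted p = 0.100). For Junb, Cebpd and Timp1 the 4 KO-SH samples lay below the other 12, as they did for the sum of early response markers, whose part was not tested.

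Bcl3, an atypical inhibitor of NF-kB and a STAT3 target, differed in pattern from Junb, Cebpd and Timp1. It stood at 4.50, 3.82, 5.76 and 5.22 CPM in WT-SH and at 12.9, 8.66, 7.87 and 9.27 CPM in WT-MI. It stood at 8.20, 7.94, 9.04 and 6.25 CPM in KO-SH and at 8.36, 5.68, 7.48 and 6.47 CPM in KO-MI. All 4 WT-SH samples lay below all WT-MI and KO-SH samples, while the 2 knockout groups overlapped. Bcl3 rose after MI in wild type by 1.01 ± 0.18 on the log2 scale (adjusted p = 0.00578) and was higher in the knockout after sham by 0.71 ± 0.18 (adjusted p = 0.0134, 0.61 with 0.0516 without replicate 2 of WT-SH). The difference between the genotypes' responses was -1.18 ± 0.25 (adjusted p = 0.0149), the only call among the 70 listed genes for that contrast by edgeR, which had 10 at an unadjusted p under 0.05, with 3 called by DESeq2. All 16 fits that leave out 1 library kept it. For Osmr, too, WT-SH was the lowest group and WT-MI the highest by mean, with its difference of responses at -0.69 and an adjusted p of 0.0931. Jak3 had the same lowest and highest groups, with means of 44.2 CPM in WT-SH and 67.3 CPM in WT-MI.

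**Figure D4:**
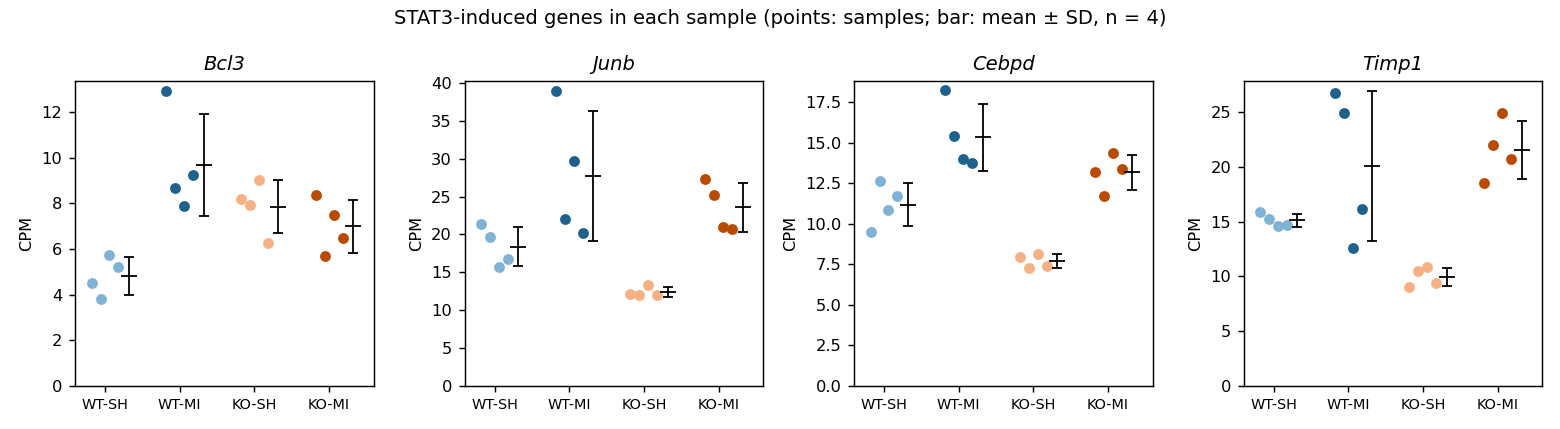
Level in CPM of 4 genes induced by STAT3 in every sample, by group, with the mean ± SD of 4 samples beside the points. For Bcl3 the WT-SH group is lowest by mean, with samples at 3.82 to 5.76 CPM, and for Junb, Cebpd and Timp1 the KO-SH samples lie lowest.

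Of 8 genes listed as induced by STAT5, 7 were tested. Id1, a regulator that binds helix-loop-helix factors and also answers to BMP, was 56.8 to 88.7 CPM in WT-SH and 38.7 to 46.7 CPM in KO-SH. It was lower in the knockout after sham by -0.76 ± 0.14 on the log2 scale (adjusted p = 0.00198) and rose after MI in the knockout by 0.63 ± 0.14 (adjusted p = 0.00677), and both calls held in all 8 fits that leave out 1 library. With the correction for length and GC content the change after MI was 0.34 (adjusted p = 0.0497). Serpina3g, a serine protease inhibitor with close paralogues that may share its reads, rose after MI in the knockout by 2.08 ± 0.51 (adjusted p = 0.0102), also in all 8. In wild type the log2 change of Serpina3g after MI was 1.41 ± 0.52 (adjusted p = 0.186). Igfals, the acid-labile subunit of the insulin-like growth factor complex, was higher in the knockout after sham by 0.71 ± 0.21 (adjusted p = 0.0245, lost in 4 of 8). Cish and Id1 were thus lower, and Igfals higher, in KO-SH than in WT-SH, and the median over the 7 genes was -0.08.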

How the data were processed

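RNA-seq of polyA RNA gave 1 table of counts per gene for 16 libraries. Per the submitters' processing notes, the authors used cutadapt 3.4, HISAT2 2.2.1, HTSeq 0.13.5 and DESeq2 with GRCm39, and the deposited values are raw counts per Ensembl gene. The strand setting is not given in the sources used here. Reads that HTSeq assigned to no gene, 25.8% to 29.9% of each library, were left out, and symbols were found for 22362 of 22468 genes.

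Group means were fitted in edgeR 4.0.16 (R 4.3.3) with TMM scaling, filterByExpr and the robust quasi-likelihood test on all 16 samples (12 residual degrees of freedom). P-values are two-sided and Benjamini-Hochberg adjusted over the 13412 genes tested, with 0.05 as the threshold. The code was tested on simulated data. Intervals are 95%. CPM use the scaled totals, and exon lengths come from GENCODE M21 (GRCm38).

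Alternatives were DESeq2 1.42.0, RLE scaling, no filter, no haemoglobin and mitochondrial genes, the replicate number as a block, only the 2 groups compared, no libraries lacking Y-linked reads, each library left out, and a length and GC correction, the last chosen after seeing the data.

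The members and lists were chosen with earlier results of these data known. Listed genes are named where they are among up to 4 per list with the smallest p and a call in at least 1 of the 5 comparisons. The 3 genes most like each called member are also named. No 2 replicates agreed within sampling noise (smallest chi-square per degree of freedom 3.88).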

Additional observations from a re-analysis of the deposited data

Results flagged for a closer look

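Jak1 was 140 CPM in replicate 3 of KO-MI against 156 to 159 CPM in the other 3 samples of that group. The gap was 0.845 of the group's range, above Dixon's critical value for 4 samples. It was the only 1 of 36 groups of member values past that value, and chance gives about 1 in 20.

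The response of Bcl3 to MI differed between genotypes by -1.18 on the log2 scale (edgeR interaction contrast, adjusted p = 0.0149). All 4 WT-MI samples exceeded all WT-SH samples, while KO-MI and KO-SH overlapped.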

How the results depend on the processing

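Over all genes tested, MI in wild type called 302 genes, with 511 by DESeq2, 185 with only the 2 groups compared, 166 without the 3 libraries lacking Y-linked reads and 86 to 385 with 1 library left out. MI in the knockout called 2220, with 1291 without the 3 libraries and 1230 to 2931 with 1 left out. Genotype after sham called 2057, with 3211 from the 2 groups alone, 1237 without the 3 libraries and 1298 to 2077 with 1 left out. Genotype after MI called 2, with 10 by DESeq2, 1 without haemoglobin and mitochondrial genes, 1 from the 2 groups alone, 1 without the 3 libraries and 1 to 4 with 1 left out. The interaction called 368, with 628 by DESeq2, 217 without the 3 libraries and 178 to 817 with 1 left out. Members called for MI in the knockout went from 1 to 2 by DESeq2, without haemoglobin and mitochondrial genes, with the replicate block and with the 2 groups alone, each adding Il6st, and to 0 without the 3 libraries and with the length and GC correction. With 1 library left out, members called ranged from 0 to 1 for MI in wild type, 0 to 2 for MI in the knockout, 1 to 3 for genotype after sham and 0 to 2 for the interaction.

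Log2 changes near 0 changed sign. Without the 3 libraries Socs3 for MI in wild type was -0.0108. With the length and GC correction Socs2 after sham was -0.0559 and Stat3 between genotypes after MI was 0.00153. With 1 library left out, values for MI in wild type ranged from -0.22 to 0.27 for Socs3, -0.0398 to 0.0655 for Jak2, -0.0981 to 0.13 for Socs2 and -0.0258 to 0.183 for Il6st. They ranged from -0.0842 to 0.171 for Osmr for MI in the knockout and from -0.0180 to 0.210 for Socs2 after sham. Between genotypes after MI they ranged from -0.0512 to 0.0252 for Stat3, -0.278 to 0.0291 for Socs1 and -0.0635 to 0.124 for Il6st. The cause was not tested. Samples with the same replicate number in different groups had correlated deviations of -0.10 to 0.48 (median 0.01 over 24 pairs), and those with different numbers -0.33 to 0.21, so the numbers were not taken to pair samples. The 0.48 belonged to replicate 2 of WT-SH with replicate 2 of WT-MI. These libraries had the highest mitochondrial share of their groups, 13.4% and 12.8%. Leaving out either of them changed calls of Il6st, Osmr or Cish, as given above, and the cause was not tested. Of 8 samples per comparison, 2 to 5 correlated best with their own number, and the replicate block changed no other count of members called. Socs1 had 12 to 41 reads per library and Socs3 27 to 103. The SD between samples reached 47.7% of the mean for Socs1 in WT-SH and 43.2% for Socs3 in WT-MI. Depth and this spread both limit what can be detected, and their shares were not tested.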
